A study of Mus musculus with 2 samples.

Results

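LHX6 binding intervals at histone genes were described: the intervals of the LHX6 chromatin immunoprecipitation and sequencing (ChIP-seq) library whose deposited gene list holds a symbol that starts with Hist1, Hist2, Hist3 or Hist4, or with H1f, H2af or H3f. The rule took 60 of 6566 LHX6 intervals (0.914%). Of these, 54 list a replication-dependent gene (Hist names) and 8 list a replacement gene (H1f, H2af and H3f names), and 2 of them, at the Hist4h4 and H2afj locus on chromosome 6, list both. Counted by the nearest listed histone gene, 53 intervals were replication-dependent and 7 were replacement. LHX6 is a LIM homeodomain transcription factor of the facial mesenchyme. The ChIP library was made with a rabbit polyclonal antibody to LHX6 from 20 µg of chromatin, out of pooled maxillary arches, which form the upper jaw, of 47 embryos of wild-type CD-1 mice at E11.5. The input library came from the same tissue with no antibody and holds 6 intervals, none of which overlaps a histone gene interval. With 1 library of each kind there was no replicate and no test, so the comparisons below are of counts and values, with exact Clopper-Pearson 95% intervals that cover counting error only. These intervals treat genes as independent, although neighbouring histone genes share sequence and often an interval. The files hold no expression values, so the tissue could not be checked against marker genes, and in a pool of embryos the share of bound cells and the binding per cell cannot be told apart.

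Histones are the proteins around which nuclear DNA is wound. The replication-dependent genes for the core histones H2A, H2B, H3 and H4 and the linker histone H1 lie in clusters, are short and mostly without introns, are transcribed as DNA is replicated, and yield mRNAs that end in a stem-loop in place of a poly(A) tail. The replacement histone genes lie singly, have introns or polyadenylated mRNAs in most cases, and are transcribed outside DNA replication as well. Promoters of the clustered genes are known for a CCAAT box, bound by the factor NF-Y, and for elements particular to each family, such as the octamer of H2B promoters, bound by POU2F1.

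The promoter sequences below show how the intervals with the highest signal and their closest relatives differ. They come from RefSeq promoters of GRCm38.p6 and were located by exact match in NCBI build 37 (mm9), whose positions are given. Each is read 5′ to 3′ toward the transcription start of the named gene. Capitals mark TGATTG, which with a further G holds the reverse complement of CCAAT, and CCAAT itself, TATAAA, the octamer ATTTGCAT and the H1 element AAACACAA, on either strand. The 6 genes for H1 linker histones each have CCAATCA, the reverse complement of TGATTGG, before the start, and are given in order of the height of their interval, with Hist1h1t, which had none at its start, last.
Hist1h1e (chr13:23714428-23714547, minus strand): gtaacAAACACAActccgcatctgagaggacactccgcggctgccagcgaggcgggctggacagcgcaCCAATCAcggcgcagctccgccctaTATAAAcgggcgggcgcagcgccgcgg
Hist1h1c (chr13:23830556-23830675, plus strand): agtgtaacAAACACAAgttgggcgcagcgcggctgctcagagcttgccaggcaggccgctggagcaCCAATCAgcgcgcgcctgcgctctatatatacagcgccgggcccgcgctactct
Hist1h1d (chr13:23646781-23646900, plus strand): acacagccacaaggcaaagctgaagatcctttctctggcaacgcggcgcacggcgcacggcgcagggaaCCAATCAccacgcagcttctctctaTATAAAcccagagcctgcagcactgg
Hist1h1b (chr13:21872495-21872614, minus strand): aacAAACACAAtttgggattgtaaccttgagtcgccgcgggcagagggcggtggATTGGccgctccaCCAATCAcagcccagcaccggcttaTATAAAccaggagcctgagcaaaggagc
Hist1h1a (chr13:23855417-23855536, plus strand): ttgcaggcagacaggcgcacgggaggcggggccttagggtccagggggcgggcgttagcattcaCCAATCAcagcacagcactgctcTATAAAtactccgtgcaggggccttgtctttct
Hist1h1t (chr13:23787560-23787679, plus strand): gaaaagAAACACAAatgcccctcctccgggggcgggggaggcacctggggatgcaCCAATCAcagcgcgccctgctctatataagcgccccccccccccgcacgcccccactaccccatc
Hist1h2ag and Hist1h2bj, and likewise Hist1h2ae and Hist1h2bg, are H2A and H2B genes that are read away from each other out of a shared stretch, printed here on the plus strand toward the H2B gene. The first stretch holds TGATTGG 3 times. The other is printed from the annotated start of Hist1h2ae and so opens 1 base into a TGATTGG, which lies at -180 from the RefSeq start of Hist1h2bg and within the interval. Both lay under high intervals.
Hist1h2ag and Hist1h2bj (chr13:22134819-22135066, plus strand): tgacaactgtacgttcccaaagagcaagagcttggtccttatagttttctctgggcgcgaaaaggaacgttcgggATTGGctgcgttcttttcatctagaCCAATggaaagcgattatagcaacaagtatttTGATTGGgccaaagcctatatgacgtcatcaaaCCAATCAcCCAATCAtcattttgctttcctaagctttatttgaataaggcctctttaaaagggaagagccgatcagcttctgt
Hist1h2ae and Hist1h2bg (chr13:23663090-23663264, plus strand): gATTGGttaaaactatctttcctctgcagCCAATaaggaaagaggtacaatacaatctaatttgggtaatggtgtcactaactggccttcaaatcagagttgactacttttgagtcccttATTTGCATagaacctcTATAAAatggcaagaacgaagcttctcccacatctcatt
Hist1h3e had the highest interval of the replication-dependent H3 genes, and Hist4h4 and Hist1h4h the highest of the H4 genes. In the H4 pair, capitals also mark GGTCC, the core of the H4 promoter element bound by HINFP in human cells, which there follows CAATCA directly.
Hist1h3e (chr13:23654255-23654424, minus strand): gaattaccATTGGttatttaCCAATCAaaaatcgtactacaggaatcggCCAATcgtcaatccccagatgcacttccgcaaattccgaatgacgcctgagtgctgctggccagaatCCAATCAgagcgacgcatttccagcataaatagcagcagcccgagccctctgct
Hist4h4 (chr6:136752953-136753072, minus strand): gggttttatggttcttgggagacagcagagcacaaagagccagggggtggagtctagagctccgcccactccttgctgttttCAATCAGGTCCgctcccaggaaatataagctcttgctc
Hist1h4h (chr13:23622793-23622912, plus strand): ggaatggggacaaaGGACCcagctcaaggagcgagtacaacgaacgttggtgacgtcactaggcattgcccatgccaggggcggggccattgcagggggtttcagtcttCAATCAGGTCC
H3f3b and H2afj are the replacement genes with the highest intervals. CCAAT or its reverse complement occurs 4 times in the H3f3b stretch and 3 times in that of H2afj.
H3f3b (chr11:115885819-115886038, minus strand): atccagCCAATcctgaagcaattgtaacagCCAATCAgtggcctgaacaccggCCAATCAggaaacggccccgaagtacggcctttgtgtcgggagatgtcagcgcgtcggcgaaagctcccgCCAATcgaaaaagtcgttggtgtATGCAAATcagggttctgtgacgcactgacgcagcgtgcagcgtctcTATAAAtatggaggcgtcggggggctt
H2afj (chr6:136756619-136756768, plus strand): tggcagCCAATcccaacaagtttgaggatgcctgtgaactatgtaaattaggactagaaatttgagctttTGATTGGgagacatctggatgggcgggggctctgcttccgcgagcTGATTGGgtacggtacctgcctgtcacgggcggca

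The replication-dependent intervals lay in dense rows along the clusters. The Hist1 cluster on chromosome 13 carried 42 of them, the Hist2 cluster on chromosome 3 carried 8, the Hist3 genes on chromosome 11 had 2 and Hist4h4 on chromosome 6 had 1, each counted by the nearest listed gene. In the first stretch of Hist1, 10 intervals lay over 121.8 kb with 19 annotated histone genes. The second stretch held 5 intervals over 8.6 kb with 5 genes, and the third 26 intervals over 233.4 kb with 29 genes. The Hist2 genes held 8 intervals over 59.1 kb with 10 genes, whereas the whole genome had 2.49 LHX6 intervals per Mb. Because genes in a cluster are close, the deposited lists of 46 of the 60 intervals name 3 or more histone genes, up to 7, and the lists of 46 intervals name histone genes alone. A listed gene is therefore not always the nearest, and distances below are to the start of the nearest listed histone gene, as deposited. The map of the Hist1 stretches shows intervals at most genes, and a block without any at the right end of the first stretch.

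**Figure D1:**
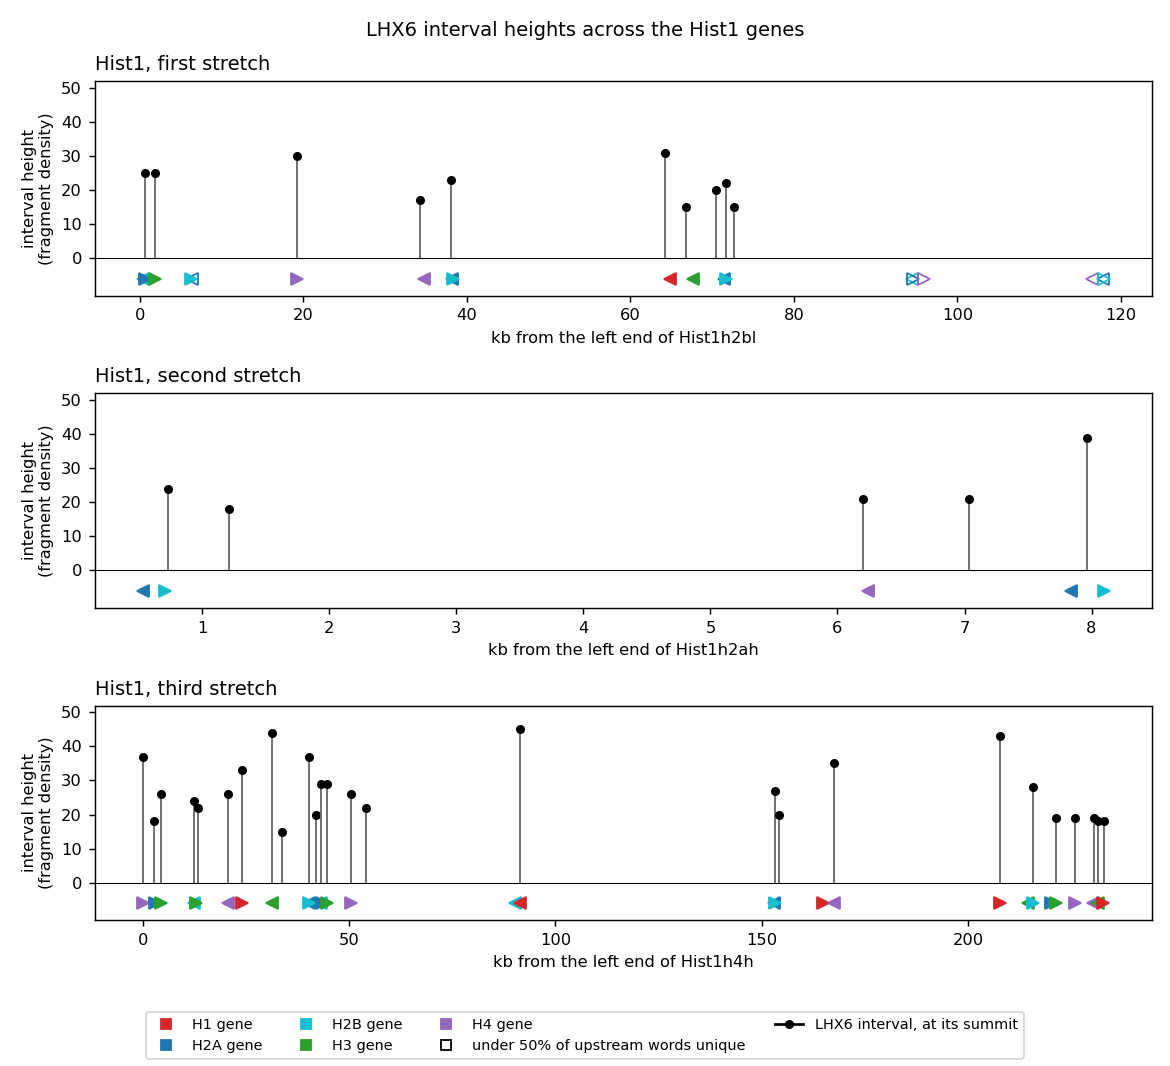
Height of each LHX6 interval (highest fragment density, vertical lines with points at the summit) along the 3 stretches of the Hist1 cluster, in kb from the left end of the first gene; triangles below show genes by family and direction, open where under 50% of upstream words are unique. The 6 genes at the right of the first stretch have no interval.

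Most replication-dependent histone genes had an LHX6 interval at their start, in every family. In the deposited gene lists, 57 of the 67 protein-coding replication-dependent genes of GENCODE M1 (85.1%, 74.3 to 92.6) and 6 of the 12 replacement genes (50%, 21.1 to 78.9) were named, beside 21% of all 22238 protein-coding genes. A summit lay within 1 kb of an annotated start of 51 of 67 replication-dependent genes (76.1%, 64.1 to 85.7) and of 5 of 12 replacement genes (41.7%, 15.2 to 72.3), beside 12.9% of all protein-coding genes. These 2 intervals overlap. An interval overlapped the gene body in 76.1% of replication-dependent genes and in 50% of replacement genes, beside 16.5% of all. By family, a start summit was found for 5 of 6 H1 genes, 13 of 19 H2A genes, 12 of 18 H2B genes, 10 of 11 H3 genes and 11 of 13 H4 genes.

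The replication-dependent genes without a start summit numbered 16. They included the testis genes Hist1h1t, Hist1h2aa and Hist1h2ba, known from male germ cells, and Hist1h2al, which lies alone on chromosome 13 far from the cluster. The others were Hist1h3c, Hist1h2ab, Hist1h2be, Hist1h2bm, Hist3h2ba, Hist2h2aa2, and the block of Hist1h2bq, Hist1h2ao, Hist1h4m, Hist1h4n, Hist1h2ap and Hist1h2br. Hist1h2be has a start in RefSeq at which an interval of height 22 had its summit 815 bp downstream, so its absence depends on the annotation. The start of Hist1h3c lay inside the broad interval of Hist1h2bb, whose summit was beyond 1 kb. Among replacement genes, the 7 without a start summit were H3f3a, the other gene for the same H3 variant as H3f3b, H2afy and H2afy2, which encode macroH2A proteins, H1fx, the oocyte linker histone H1foo, the spermatid linker histone H1fnt, and H2afb1. H1f0, annotated as a pseudogene in GENCODE M1, was not among the genes counted and had no interval.

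Part of the cluster sequence occurs more than once in the genome, and no source used here states how reads with several matches were placed. The share of 32-base words that occur once in NCBI build 37 was taken as a measure. Over the intervals, the median share was 85.8% for replication-dependent and 98.3% for replacement intervals, against 100% for the 2302 other LHX6 intervals at gene starts, and it was under 90% in 37 of 54 replication-dependent, 2 of 8 replacement and 73 of 2302 other intervals. In coding sequence it was lower, with a median of 17% over 62 replication-dependent genes and 71.2% over 5 replacement genes with a single coding exon. The 250 bp before the start had at least 50% unique words in 58 replication-dependent genes, of which 49 had a start summit (84.5%, 72.6 to 92.7), and under 50% in 9, of which 2 had one (22.2%, 2.81 to 60.0). All 6 genes of the block without an interval, among them the only H4 genes without one, had 0% unique words before the start and from 0% to 8.6% over the gene.

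Repeated sequence also lay between intervals. Neighbouring histone gene intervals were at most 300 bp apart in 10 places. In 8 of these the words between them were unique in 0% of cases, and each of the 8 overlapped coding sequence, of Hist1h2ai, Hist1h2bp, Hist1h2bk, Hist1h2ag, Hist1h2bg, Hist1h2bc, Hist1h3a or Hist2h3b. Apart from that of Hist1h2bp, for which this is not established, they lay wholly in coding sequence. In the other 2 places, between Hist1h4i intervals and between Hist1h2bh and Hist1h3f, all words were unique (100%). At Hist1h2bc, for example, an interval of height 27 ended at 23776238 and the next, of height 20, began at 23776341, with 102 bp of coding sequence between them. The part of repeated sequence in the number, length and height of intervals was not tested.

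**Figure D2:**
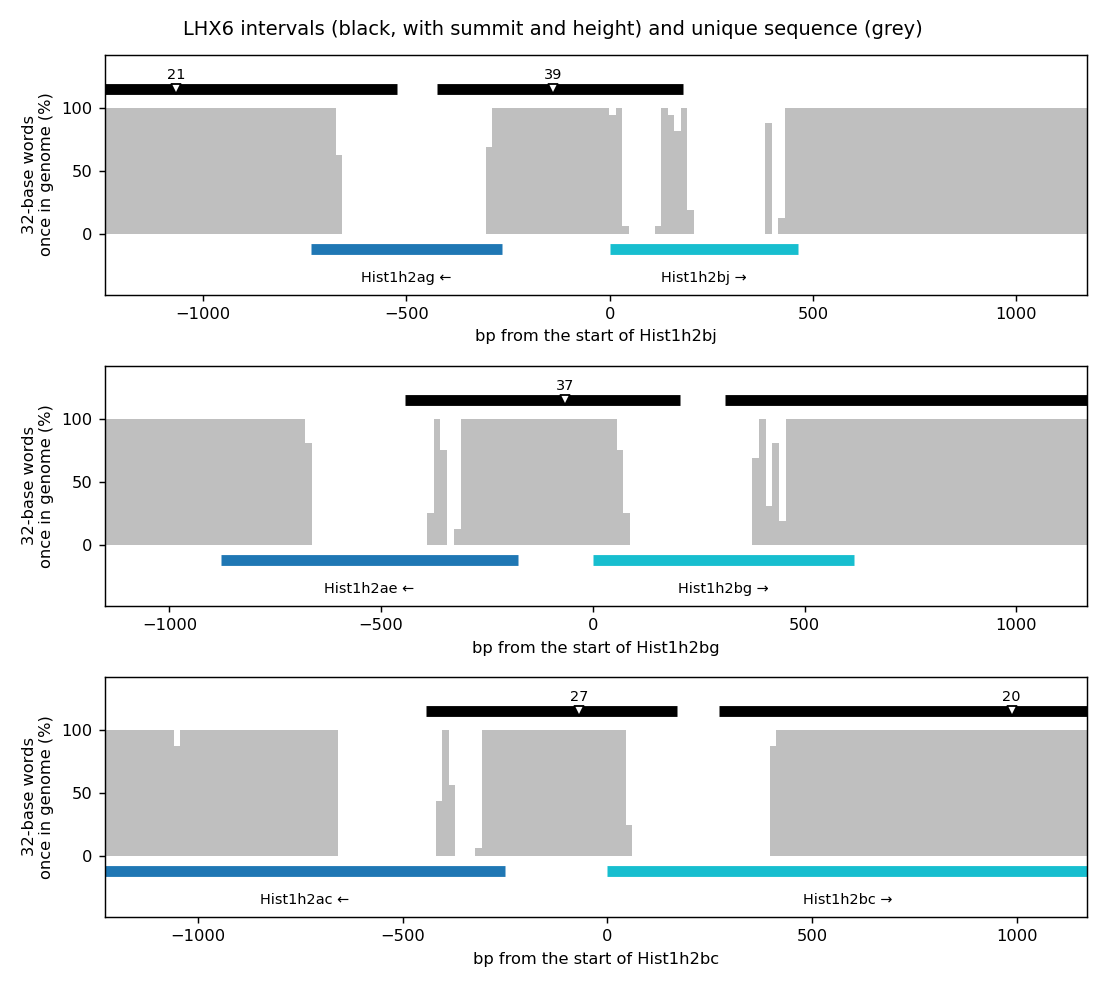
LHX6 intervals (black bars, white triangles at the summits, with the height) and the share of 32-base words found once in the genome (grey, %) around the starts of Hist1h2bj, Hist1h2bg and Hist1h2bc, in bp from the start; coloured bars are the genes, with arrows in the direction of transcription. The gaps between black bars fall on coding sequence with 0% unique words, and the summits of height 39, 37 and 27 lie between the paired starts, where words are unique.

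Summits sat close to the starts of the clustered genes. Within 1 kb of a start lay 46 of 54 replication-dependent summits (85.2%, 72.9 to 93.4) and 5 of 8 replacement summits (62.5%, 24.5 to 91.5). Over all LHX6 intervals, 35.9% had a summit within 1 kb of the start of a listed gene. The histone intervals were chosen by a listed gene, and genes in the clusters are close, so these shares are not like for like. Of the 53 summits nearest a replication-dependent gene, 26 lay upstream and 20 downstream within 1 kb, 32 were within 200 bp and 39 within 500 bp, with a median signed distance of -2 bp and a median absolute distance of 116 bp. Of the 7 nearest a replacement gene, 3 lay upstream and 2 downstream within 1 kb, with a median signed distance of -150 bp and a median absolute distance of 218 bp. Summits are recorded on a 32 bp grid for 48 of the 60 intervals, which limits these distances. CpG islands overlapped 52 of 54 replication-dependent intervals (96.3%, 87.3 to 99.5) and 7 of 8 replacement intervals (87.5%, 47.3 to 99.7), beside 92.4% of other LHX6 intervals at gene starts and 41.6% of all LHX6 intervals. The 3 intervals without an island were those of Hist1h2bj at 6682 bp, of Hist1h3e at -2406 bp and of H2afy.

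The replication-dependent intervals were of middling height, and those with a summit beyond 1 kb of the nearest listed histone start did not exceed 22. Height is the highest density of 150 bp fragments in an interval, as the authors recorded it. It had a median of 23.5 (order-statistic 95% interval 21 to 26, from 15 to 45) over 54 replication-dependent intervals and of 27 (19 to 53, the whole range) over 8 replacement intervals. The classes overlap, and of the replacement intervals only that of 53 lay above all replication-dependent ones. Other LHX6 intervals at gene starts had a median of 21, with quartiles of 18 and 26, and all LHX6 intervals had one of 22. A height of 30 or more was reached by 15 of 54 replication-dependent intervals (27.8%) and 3 of 8 replacement intervals (37.5%), beside 15% of other intervals at gene starts, and 1 histone interval, at H3f3b, reached 50. The 46 replication-dependent summits within 1 kb of a start had a median height of 25 and the 7 beyond it one of 21, none above 22. That of 21 equals the median of other intervals at gene starts. Among the 7, 1 summit lay 815 bp from a RefSeq start of Hist1h2be and 1 lay 718 bp from another annotated start of Hist2h3c1. A further summit lay 0.0 kb from the start of Rnf187. The plot of distance and height shows that the heights of 40 and more lay within about 150 bp of a start.

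**Figure D3:**
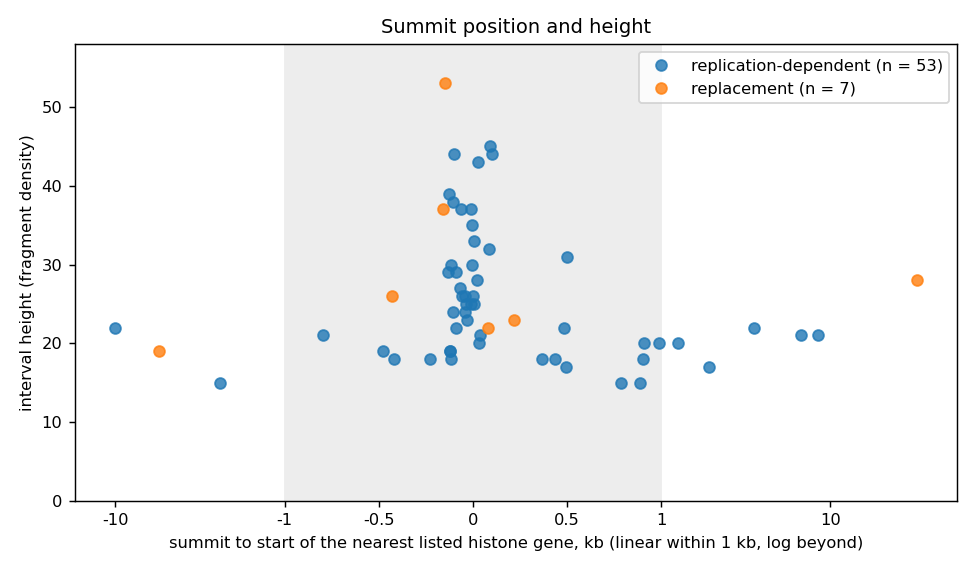
Height of each histone gene interval (fragment density) against the distance of its summit from the start of the nearest listed histone gene, negative upstream; linear within 1 kb (grey) and logarithmic beyond. The 53 replication-dependent intervals peak at the start and reach 45, and the 7 replacement intervals reach 53 at -150 bp.

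The linker histone H1 genes had the highest median height of the families and the highest single interval of the clusters. Hist1h1e had a height of 45 (chromosome 13, 23712488 to 23714855, summit 91 bp downstream of the start), Hist1h1c 43 (23830301 to 23832737, 28 bp), Hist1h1d 33, Hist1h1b 31 and Hist1h1a 18. Of the 5, only that of Hist1h1a was below the median of all LHX6 intervals. Those of Hist1h1a, Hist1h1b, Hist1h1c and Hist1h1e covered the whole gene, and over all 5 the median length was 2070 bp, against 891 bp over all replication-dependent intervals. The Hist1h1e interval also holds an annotated start of the long form of Hist1h2be. As the printed promoters show, Hist1h1a has the same CCAATCA and TATAAA as Hist1h1e and lacks AAACACAA, which Hist1h1d, with a height of 33, lacks too. Hist1h1t has CCAATCA and AAACACAA and no interval at its start. The median height of H1 intervals was 33 over 5, against 23 over 7 for H2A, 22 over 15 for H2B, 19 over 13 for H3 and 26 over 13 for H4, and every family overlapped every other. All 5 H1 summits lay within 1 kb of a start. Among such summits, the medians were 23 over 7 for H2A, 24 over 11 for H2B, 22 over 11 for H3 and 26 over 12 for H4. An interval over an H2A and an H2B start was counted for the nearer one only. That of height 39 counted as H2A at -126 bp, with the H2B start at -139 bp, so the split of H2A and H2B is partly arbitrary. H1 genes also stood apart in unique words, with a median of 83.8% over the coding sequence, against 12.3% for H2A, 15.8% for H2B, 12.6% for H3 and 22.3% for H4, and the part of this in height and length was not tested.

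**Figure D4:**
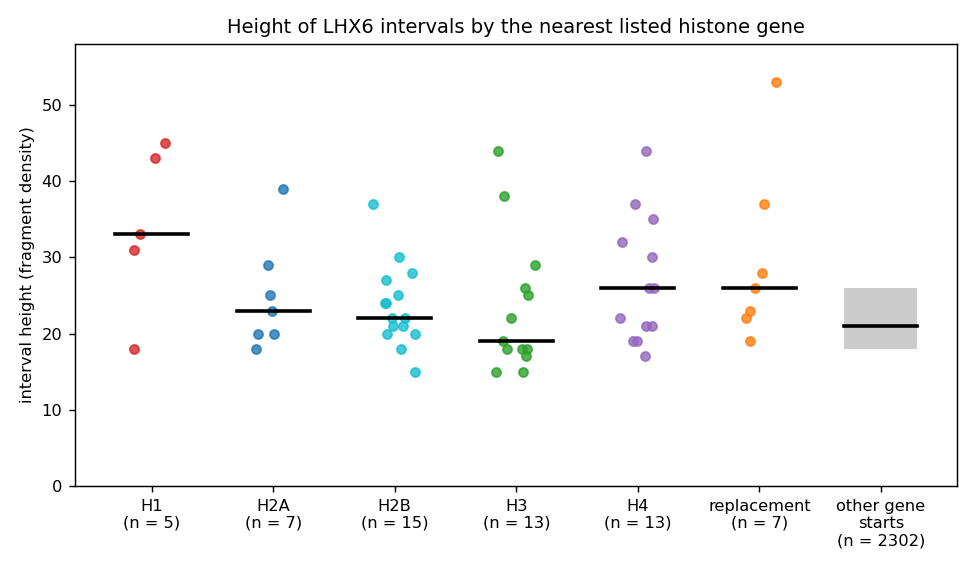
Height of each histone gene interval (fragment density, points) by the family of the nearest listed gene, with the median as a line; at the right, the median and quartiles of other LHX6 intervals at gene starts. H1 has the highest median, 33, and the ranges of all families overlap.

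H2A and H2B genes are known for divergent pairs that share a promoter. In the annotation 12 pairs had their starts within 500 bp of each other, and 9 of them had 1 interval that covered both starts. The highest was that of Hist1h2ag and Hist1h2bj, at 39 (22134659 to 22135263, summit at -126 bp from Hist1h2ag), followed by Hist1h2ae and Hist1h2bg at 37 (23662821 to 23663470). In 4 more pairs the summit also lay between the starts. Hist1h2bf and Hist1h2ad had a height of 29 (23665898 to 23666483) and Hist1h2ac and Hist1h2bc one of 27 (23775626 to 23776238). Hist1h2bl and Hist1h2ai had 25 (21807859 to 21808460) and Hist1h2an and Hist1h2bp had 22 (21878956 to 21879557). In the remaining 3 pairs the summit lay just inside one of the genes. These were Hist1h2ah and Hist1h2bk with 24 (22127266 to 22127896), Hist1h2ak and Hist1h2bn with 23 (21845396 to 21846157), and Hist2h2ac and Hist2h2be with 20 (chromosome 3, 96024601 to 96025624). The 3 pairs with no interval were the testis pair Hist1h2ba and Hist1h2aa, and 2 pairs from the block of repeated sequence, Hist1h2bq with Hist1h2ao and Hist1h2ap with Hist1h2br. The testis pair has from 55.6% to 88.9% unique words over its genes, so it differs in that measure from the other 2. In all, 12 histone intervals hold 2 annotated histone starts. Beside those of the 9 pairs, they were the intervals of Hist3h2bb-ps with Hist3h2a (height 30, chromosome 11, 58767732 to 58768683), of Hist1h3c with Hist1h2bb (height 28, chromosome 13, 23837209 to 23839647) and of Hist1h2be with Hist1h1e (height 45).

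The remaining H2A and H2B intervals had heights from 15 to 25. A second interval at the pair of Hist1h2an and Hist1h2bp, of 20, had its summit 911 bp downstream of the start of Hist1h2an, past the end of this short gene. Hist1h2af, an H2A gene outside the pairs, had 18. Among H2B genes, Hist2h2bb had 25 at its start and 21 at 8457 bp, near the end of its long annotated form. Hist1h2bh had 24, and second intervals lay downstream of Hist1h2bc (20 at 988 bp), Hist1h2bk (18 at 436 bp) and Hist1h2bp (15 at 888 bp, 21879808 to 21880692). Each of these second intervals followed a gap with 0% unique words. That of Hist1h2bk began inside the gene, at 22127962. That of Hist1h2bc began within repeated sequence, which ran on to about 389 bp from the start. Hist1h2bf was the nearest gene to an interval of 20 at 1259 bp. Hist1h2bj had one of 21 at 6682 bp, and Hist3h2ba one of 22 at -9997 bp. That last summit lay 0.0 kb from the start of Rnf187, a neighbouring ubiquitin ligase gene that its list also holds.

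Replication-dependent H3 intervals ranged from 15 to 44. Hist1h3e had a height of 44 with the summit at -102 bp (23654078 to 23654830), beside a second interval of 15 at -2406 bp (23656267 to 23656819). Hist2h3b had 38 at -105 bp (chromosome 3, 96071874 to 96072772). All other replication-dependent H3 intervals were at 29 or under, with Hist1h3d at 29, Hist1h3g at 26, Hist1h3h at 25, Hist1h3f at 22, Hist1h3b at 19, and Hist1h3a and Hist2h3c2 at 18. Hist1h3i had the lowest, at 15, with its summit 786 bp downstream of the start, past the end of the gene (21874144 to 21874991). Hist2h3c1 was nearest to intervals of 18 and 17, in a duplicated stretch whose upstream words are unique in 14.6% of cases.

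H4 genes had 5 of 13 intervals at 30 or more. Hist4h4, the single H4 gene beside H2afj, had 44 with the summit at 100 bp (chromosome 6, 136752103 to 136753386), and Hist1h4h had 37 at -7 bp (chromosome 13, 23622499 to 23624060). Hist1h4c followed at 35, Hist2h4 at 32 and Hist1h4j at 30. Hist1h4d and Hist1h4f had 26, Hist1h4i had 21 in each of 2 intervals, Hist1h4a and Hist1h4b had 19 and Hist1h4k had 17. The second interval assigned to Hist1h4d, of 22 at 3553 bp, is the one near the RefSeq start of Hist1h2be.

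The replacement genes with an interval were H3f3b, H2afj, H2afz, H2afv, H2afx and H2afy. H3f3b, which encodes the H3 variant laid down outside replication, had the highest histone interval, of 53, at -150 bp (chromosome 11, 115884966 to 115886412), at percentile 96.2 of all LHX6 heights. Its second listed interval, of 19 at -5510 bp (115890945 to 115892533), lay 0.31 kb from the start of Unk, a neighbouring gene. H2afj, for the variant H2A.J, had 37 at -157 bp (chromosome 6, 136756328 to 136757102), a few kb from the Hist4h4 interval of 44. H2afz and H2afv, the genes of H2A.Z, had 26 at -427 bp (chromosome 3, 137526191 to 137527917) and 23 at 218 bp (chromosome 11, 6343827 to 6345115). H2afx, whose product is phosphorylated at DNA breaks, had 22 at 82 bp (chromosome 9, 44142255 to 44143704). H2afy differed from the rest, with 28 at 32620 bp inside the gene, no CpG island and no interval at its start (chromosome 13, 56203837 to 56204585).

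The replication-dependent intervals differed from other LHX6 intervals at gene starts in base composition and in promoter elements. Within 100 bp of the summit the median GC content was 48.3% in replication-dependent and 57.2% in replacement intervals, against 65.2% at other gene starts. There, TATAAA was found in 20.4% of replication-dependent intervals (10.6 to 33.5), against 3.3% of other intervals at gene starts (2.61 to 4.12). CCAAT was found in 53.7% (39.6 to 67.4), against 32.6% (30.7 to 34.6), and the octamer ATTTGCAT in 11.1% (4.19 to 22.6), against 0.956% (0.6 to 1.44). The 6 intervals with the octamer had an H2B gene or pseudogene as the nearest listed one. They include the second interval of Hist1h2bc, whose summit lay 988 bp downstream of the start and so not at the promoter. Some of them also lay over the start of an H2A gene, namely Hist3h2a, Hist1h2ah, Hist1h2ae or Hist1h2ac. Of the replacement intervals, the high one of H3f3b held the octamer. These elements are rich in A and T, so they move with the base composition, whose part was not tested.

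Homeodomain hexamers near the summits were counted on either strand: TAATTA, a core site of many homeodomain proteins, and the related TGATTA and also TGATTG. At least 1 lay within 100 bp of 21 of 54 replication-dependent summits (38.9%, 25.9 to 53.1) and 3 of 8 replacement summits (37.5%, 8.52 to 75.5), against 27.0% at other gene starts (25.2 to 28.8) and 50.2% over all other LHX6 intervals. When TGATTG that continues as TGATTGG was left out, the counts were 6 of 54 (11.1%) and 1 of 8 (12.5%), against 13.4% at other gene starts. Thus 15 of the 21 replication-dependent intervals were counted through TGATTGG alone, which cannot be told apart from a CCAAT box by its letters. TGATTA was near 1 and TAATTA near 2 replication-dependent summits.

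The same elements were counted in the 250 bases before each RefSeq start, where 77 of the 89 histone genes in GENCODE matched, with 78 starts. Divergent pairs share bases and are counted in both promoters. The replacement promoters include those of H1f0 and of other genes that GENCODE M1 annotates as pseudogenes, and lack that of H2afx. TGATTG was in 42 of 63 replication-dependent promoters (66.7%) and 5 of 15 replacement promoters (33.3%), against 12.7% of all 32851 promoters. TGATTGG was in 37 (58.7%) and 5 (33.3%), against 7.23%, and CCAAT in 52 (82.5%) and 8 (53.3%), against 33.8%. Of the TGATTG sites in replication-dependent promoters, 50 of 59 (84.7%) continued as TGATTGG, against 56.8% over all promoters. TGATTA was in 6.35% of replication-dependent promoters and TAATTA in 3.17%, against 7.21% and 4.84% of all, so of these hexamers only TGATTG was more frequent there than in all promoters.

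Families differed in which element they held. All 6 H1 promoters held TGATTGG, between -51 and -65, and 4 of 6 held AAACACAA (66.7%, against 1.67% of all promoters). TGATTGG was in 12 of 18 H2A, 13 of 17 H2B and 6 of 10 H3 promoters. The octamer ATTTGCAT was in 7 of 18 H2A and 7 of 17 H2B promoters. It was in 0 of 12 H4 promoters, of which 4 held TGATTG, while 11 held GGTCC, a sequence in 39.8% of all promoters. CAATCA with GGTCC right after it occurred in 7 of 32851 promoters, and 2 of these were Hist4h4 at -38 and Hist1h4h at -11, the H4 genes with the highest intervals. This string was chosen with earlier results of these data known, so its count is a description and bears on no link with height. Among the replacement genes, the TGATTGG promoters were those of H3f3b, H2afj, H2afz, H3f3a and H1foo, of which the last 2 had no interval. Hist1h3c held TGATTGG 3 times and had no summit within 1 kb of its start. A match describes these letters and not a bound site.

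**Figure D5:**
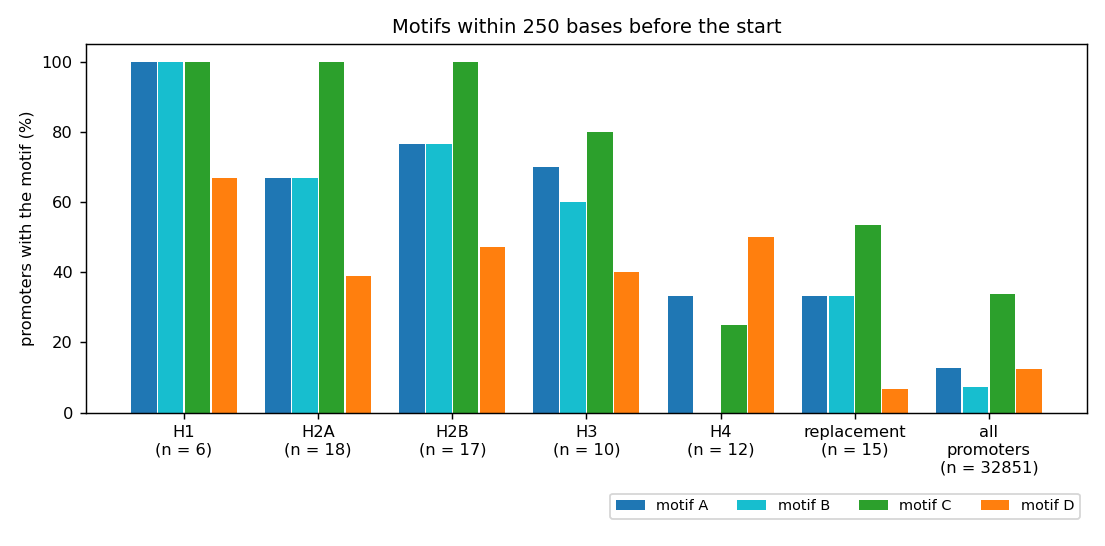
Share of promoters (%) with a motif in the 250 bases before the start, by histone family, for replacement genes and for all 32851 RefSeq promoters; motif A is TGATTG, B is TGATTGG, C is CCAAT and D is TATAAA, on either strand, and B holds both A and C. All 6 H1 promoters hold A, B and C, and no H4 promoter holds B.

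Genes that act on histone genes and proteins were examined as a list of 31. Of these, 13 (41.9%) had an interval and 10 had one with its summit within 1 kb of the start, beside the 21% of all protein-coding genes that were listed and the 12.9% with a start summit. The highest were Zfp473, whose human counterpart is part of the machinery that cuts histone pre-mRNA, at 67 (chromosome 7, 52003359 to 52004527), and Nfya, the subunit of NF-Y that contacts CCAAT, at 58 (chromosome 17, 48547962 to 48549891). Of the other NF-Y subunit genes, Nfyb had 24 and Nfyc 21 with the summit at 9904 bp. Slbp, which encodes the stem-loop binding protein, had intervals of 25 and 21, and Casp8ap2, another factor of histone mRNA processing, had 24 and 16. The octamer factor gene Pou2f1 had 28 and Sp1 29. Of histone chaperone genes, Asf1b had 31, Chaf1a 28 at -3743 bp, Nasp 22 and Anp32e, whose product removes H2A.Z, 20. Srrt, listed as Ars2, had 19 at 12715 bp. The 18 without an interval were Npat and Hinfp, regulators of histone gene transcription, Lsm10, Lsm11, E2f1, Yy1, Chaf1b, Asf1a, Hira, Ubn1, Cabin1, Daxx, Atrx, Hat1, Srcap, Ep400, Cenpa and Hjurp. The list was chosen with earlier results of these data known, so its count is a description.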

How the data were processed

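The deposited table gives, for each interval of the LHX6 ChIP and input libraries, a signal: the highest and the mean density of fragments, as the authors recorded them. Per the labels' protocols, BWA placed the reads on mm9 and each was lengthened to a 150 bp fragment. MACS appears in the submitters' processing notes. No source used here gives versions, the calling threshold, scaling between libraries, read totals or the use of multiply mapped reads, so the depth is unknown. Histone genes were located in GENCODE M1 on NCBIM37 (mm9). Starts and promoters came from RefSeq (GRCm38.p6), used by sequence match. Words of 32 bases were counted over both strands of the genome, tested first on simulated sequence. Python 3.11.15, pandas 2.3.3, numpy 2.4.6, scipy 1.17.1, pysam 0.24.0 and matplotlib 3.10.9 were used. Intervals of medians come from order statistics. All histone gene intervals were kept, and every gene nearest a summit and every listed pathway gene with an interval is named; full positions are given for the 3 highest and 3 lowest intervals of each class and for intervals that hold 2 starts. The members, gene lists and motifs were chosen with earlier results of these data known. The alternatives tried are given in the closing section.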

Additional observations from a re-analysis of the deposited data

How the results depend on the processing

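Of 44 alternatives, 33 were classed as leaving the value in place and 11 as moving it. Counts of intervals have no spread of their own, so their classing rests on a chosen margin. For the median height of the 8 replacement intervals the spread is the whole range, 19 to 53, so no subset of them could move it. The count of 33 is therefore no measure of how stable the results are. With heights of at least 22, the median of all intervals, 32 replication-dependent intervals were left in place of 54, 73.1% of the genes were listed in place of 85.1%, and CpG islands overlapped 100% of intervals, as they did for summits within 1 kb of a start in replication-dependent and in replacement intervals (100% each). Replacement intervals numbered 5 by position and 1 where the list held histone genes alone, in place of 8. Within 500 bp of a start lay 72.2% of replication-dependent summits. Hexamers were near 59.3% of replication-dependent summits within 200 bp, against 35.1% at other gene starts, in 83.3% of whole intervals, against 54.8%, and near 11.1% without TGATTGG, against 13.4%. By mean density, the median replication-dependent interval stood at percentile 66.4 of all, in place of 57.2 by height. Counting by the nearest gene, by RefSeq starts and by unique upstream words was chosen after seeing the data. No paired analysis was possible because there was 1 library per group. No library could be left out for the same reason, and the unknown depth and calling threshold limit any reading of an absent interval.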
